A study of Mus musculus with 4 samples.

Results

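The genes that carry glucose into the retinal cell, break it down to pyruvate and lactate, divert it into the pentose phosphate pathway or store it as glycogen were compared between retinas that had lost Nrl in adult life and control retinas. The 40 genes were listed by name, 36 of them were measured, and the array table held 19421 genes in all. Gpi1, Gapdh, Eno1 and G6pdx were not analysed here. Each gene was read from 1 probe set, the one with the highest mean over the arrays among those that name a single gene.

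Nrl is the transcription factor that specifies rod photoreceptors, and the study asks what its removal from a mature retina does to expression. Knockout mice were Nrlflox/flox and control mice Nrlflox/+, so that the controls carried a floxed allele too and kept an intact one. Mice of both genotypes carried CAG-CreERTM, a tamoxifen-activated Cre under a broadly active promoter, which is not limited to rods, and all received 4-hydroxytamoxifen into the peritoneum daily from postnatal day 42 to 44. Whole retinas were taken on postnatal day 63, 19 days after the last injection, and each of the 4 arrays (2 per genotype) held RNA pooled from 4 retinas of 2 animals. Age was the same in both groups, and the sources used here do not name the strain.

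Photoreceptors are known for aerobic glycolysis, the conversion of much of their glucose to lactate although oxygen is present. Glucose enters through Glut1, is trapped by hexokinase and split into trioses, and the pyruvate formed is either reduced to lactate, which leaves through monocarboxylate transporters, or passed to the mitochondria by pyruvate dehydrogenase. Many steps have several isoforms made from separate genes, and hexokinase 2 (Hk2) is known as a photoreceptor form beside the widespread hexokinase 1 (Hk1). A secreted rod protein encoded by Nxnl1 is known to act on basigin and Glut1 of cones and to raise their uptake of glucose.

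None of the 36 genes passed the correction over all genes. The gene nearest to it was Pfkfb2, which makes the activator of phosphofructokinase and stood at 56.0% of the control signal in the knockout. Hk2 lay in the other direction at 167% of control, with Hk1 beside it at 131%. The lactate transporter gene Slc16a1 stood at 71.0%, the muscle-type glycogen phosphorylase gene Pygm at 145% and the triose phosphate isomerase gene Tpi1 at 129%. The other 30 genes, among them Slc2a1, Ldha, Pgk1 and all those measured of the pentose phosphate pathway, had changes between −0.25 and 0.16 on the log2 scale.

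The sequences before the start sites of 4 of these genes are shown because they hold both genes that were higher at the first step of glycolysis and both genes that were lower. Each is the stretch of 250 bases upstream of the most upstream start that RefSeq lists on GRCm38.p6, on the gene's own strand. They lie at chr6:82774455-82774704 (minus strand) for Hk2, chr10:62379909-62380158 (minus strand) for Hk1, chr1:130716049-130716298 (minus strand) for Pfkfb2 and chr3:104638414-104638663 (plus strand) for Slc16a1, and no other RefSeq gene overlaps them. Capitals mark matches on either strand to ACGTG, which is a form of the core of the hypoxia response element. Other forms of that core were not searched and are not marked. Capitals also mark TGCTGA, a half-site of the element that NRL binds, and TAATCC, the core recognised by the photoreceptor factor CRX.
Hk2: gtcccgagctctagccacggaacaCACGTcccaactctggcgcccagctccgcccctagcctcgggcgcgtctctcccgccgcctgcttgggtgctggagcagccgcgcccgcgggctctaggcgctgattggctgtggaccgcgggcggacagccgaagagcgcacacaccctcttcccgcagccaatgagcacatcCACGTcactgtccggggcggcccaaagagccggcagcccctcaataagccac
Hk1: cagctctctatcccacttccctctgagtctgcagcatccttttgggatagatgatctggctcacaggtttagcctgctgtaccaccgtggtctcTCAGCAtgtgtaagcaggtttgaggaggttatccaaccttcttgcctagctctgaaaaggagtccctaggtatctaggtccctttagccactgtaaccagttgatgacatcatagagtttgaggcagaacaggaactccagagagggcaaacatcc
Pfkfb2: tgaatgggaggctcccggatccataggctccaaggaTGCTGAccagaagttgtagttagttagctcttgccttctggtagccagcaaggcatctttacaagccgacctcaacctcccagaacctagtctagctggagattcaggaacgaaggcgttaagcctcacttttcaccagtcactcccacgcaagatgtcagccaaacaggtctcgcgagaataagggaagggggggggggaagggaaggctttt
Slc16a1: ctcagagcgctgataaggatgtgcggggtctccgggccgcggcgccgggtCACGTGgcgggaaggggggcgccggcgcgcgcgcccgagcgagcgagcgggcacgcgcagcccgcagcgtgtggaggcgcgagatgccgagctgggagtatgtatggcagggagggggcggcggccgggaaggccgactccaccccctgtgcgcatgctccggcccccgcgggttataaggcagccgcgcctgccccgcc
Hk2 held 2 matches to ACGTG, and so did Slc16a1, where both strands of a single CACGTG match and overlap. The upstream stretches of Hk1 and Pfkfb2 each held 1 match to TGCTGA and none to ACGTG. Among these 4 genes, ACGTG was thus found for Hk2, which was higher, and for Slc16a1, which was lower. The 4 genes were picked for their changes, and a link between this motif and the direction of change was not tested.

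Upstream stretches were found for 32 of the 36 measured members and for 15239 of all genes tested. ACGTG was present in 13 of the 32 (40.6%), against 18.5% of all genes with such a stretch. TGCTGA was present in 3 (9.38%, against 14.3%), namely Hk1, Pdk1 and Pfkfb2, and TAATCC in 2 (6.25%, against 5.85%), Aldoc and Pfkp. Among the 13 genes with ACGTG were Hk2, Pygm and Slc16a1, but also Slc2a1, Slc16a3, Ldha, Pgk1, Pgam1, Pfkm and Pfkfb3, whose changes lay close to 0. These are matches of letters in a window, not binding sites.

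The arrays correlated with each other at Pearson's r between 0.987 and 0.991 across genes, which are not independent replicates. Nrl had log2 signals of 7.57 and 7.05 in the knockout against 8.21 and 8.13 in control. Both knockout pools lay below both controls, but the gene was not called (limma adjusted p = 0.289), and the sources used here do not say whether its probes lie in the deleted stretch. The level of Xist, which is transcribed from the inactive X chromosome, was 4.07 (knockout) and 4.09 (control) in replicate 1 but 10.66 and 10.47 in replicate 2. The spread within each genotype thus includes any difference between the sexes. Each pool held 2 animals, so a high level of Xist does not tell a pool of females from a mixed one. Of the members, Pgk1 and Pdha1 are X-linked.

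Several lists of cell type markers moved with genotype. All 8 measured rod markers were lower, and their summed linear signal ran from 8306 to 8481 in the knockout pools against 17158 to 17732 in control. Gnat1 had the highest control signal of the 8 (12.61) and so weighs most on this sum. The changes of the 8 ran from −3.01 for Gnat1 to −0.22 for Pde6a, with a median of −0.72. The 7 cone markers summed to 4675 to 4854 against 3094 to 3380, with 4 higher and 3 lower. The cone changes ran from −0.52 for Opn1sw, whose pools were separated, to 1.59 for Gnb3, with a median of 0.26. The Müller glia markers summed to 2826 to 2834 against 2234 to 2346, with 6 of 8 higher. The median change of the Müller list was 0.06: Clu (0.89) and Vim (0.56) were higher, Glul (−0.37) was lower, and Aqp4 (0.0065), Slc1a3 (0.017) and Rlbp1 (−0.32) had overlapping pools. All 8 markers of reactive glia (997 to 1109 against 459 to 484) and all 8 of microglia and macrophages (1080 to 1158 against 550 to 558) were higher. For the pigment epithelium, which also transports glucose and lactate, the sums of the 7 markers overlapped (1419 to 1482 against 1465 to 1799). Of these 7, 5 were lower and 2 higher, with a median of −0.15. The pools were separated for Dct (−0.32) and Mlana (0.09). The sums also overlapped for 5 bipolar markers (1691 to 1780 against 1745 to 1820) and for 6 of endothelium and pericytes (396 to 448 against 408 to 432). For 7 markers of amacrine and ganglion cells the sum was slightly lower (1171 to 1226 against 1262 to 1292), with 6 lower and 1 higher. The part of these shifts in the values below was not tested, and in whole retina fewer cells of a type and less RNA per cell cannot be told apart.

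Over all 19421 genes limma called 39 at an adjusted p under 0.05, a share of 0.201%, and 0 of the 36 members. A fit with replicate number as a block, which here goes with the level of Xist, called 8 genes and 0 members. At an unadjusted limma p under 0.05 there were 4 members higher and 2 lower, which is 16.7% of the members. Of all genes, 3.71% were higher and 3.37% lower at that level. The knockout pools lay entirely above the controls for 11 members and entirely below for 7, so that 50% of the members did not overlap, against 17.0% of all genes above and 18.4% below. The median change of the members was 0.03 and that of all genes −0.0026, and 21 members lay above 0 and 15 below. Separated pools thus made up a larger share of the members than of the whole table (35.4%). This difference is given as a description with no test. Of the 36 members, 31 lie in the brighter 50% of genes by mean signal. The share of separated pools among genes of like signal was not computed. The smallest change that was called in the whole table measured 0.88 on the log2 scale, larger than that of any member.

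**Figure D1:**
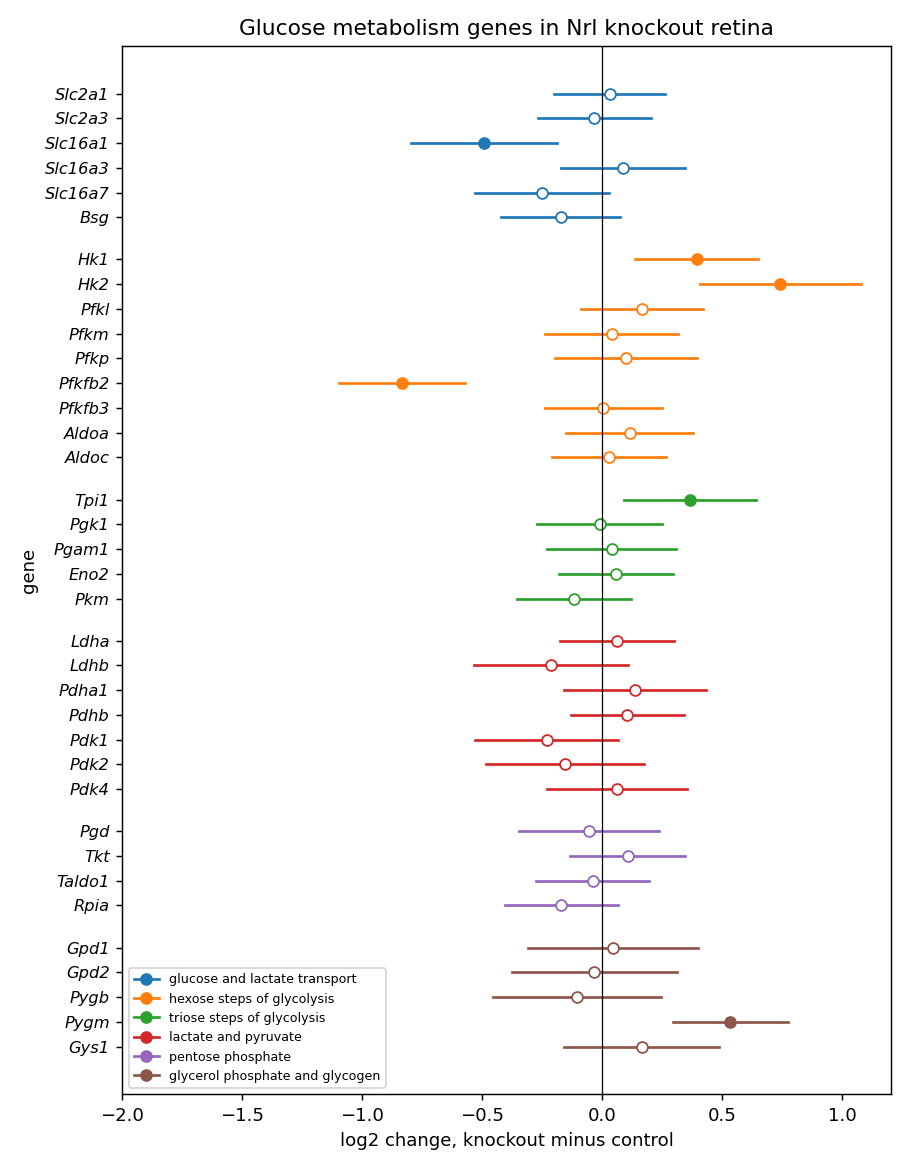
Log2 change (knockout minus control) of the 36 measured genes, grouped by role. Points are the fitted change, lines the 95% confidence interval of limma, and filled points have an unadjusted p under 0.05. Pfkfb2 and Slc16a1 stand to the left of the rest, and Hk2, Hk1, Tpi1 and Pygm to the right.

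Of the 6 genes of transport across the cell membrane, Slc16a1 had the smallest p. It encodes MCT1, which carries lactate and pyruvate together with protons. Its log2 signals were 6.84 and 7.13 in the knockout against 7.48 and 7.47 in control. Both knockout pools were lower, by unequal amounts, while the controls lay close together. The knockout mean was 6.98 ± 0.20 against 7.48 ± 0.01 (SD, n = 2 each), a change of −0.49 (SE 0.13, limma adjusted p = 0.455, 95% interval −0.80 to −0.19).

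Slc16a7, which encodes the high-affinity transporter MCT2, had 6.38 and 6.34 in the knockout and 6.72 and 6.50 in control. The groups did not overlap, and the change of −0.25 (SE 0.11) had an interval from −0.53 to 0.03. Bsg encodes basigin, the partner that brings MCT1 to the membrane, and was also lower in both knockout pools, at 8.58 and 8.67 against 8.75 and 8.84. Its change was −0.17 (SE 0.10, limma adjusted p = 0.818). Slc16a3, which encodes MCT4, the exporter of strongly glycolytic cells, had 0.09, and its pools overlapped.

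The glucose transporters gave the steadiest values of this group. Slc2a1, which encodes Glut1, had 7.21 in both knockout pools and 7.18 in both control pools. The change of 0.03 (SE 0.10) carries an interval from −0.20 to 0.26. Slc2a3, which encodes the neuronal transporter Glut3, had 6.73 and 6.67 against 6.72 and 6.75, a change of −0.03 with overlapping pools. Of the 6 transport genes, 1 was lower at an unadjusted p under 0.05, none was higher (against 3.37% of all genes lower and 3.71% higher), and the median change was −0.10.

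Hexokinase commits glucose to the cell by phosphorylating it. Hk2 had log2 signals of 8.94 and 9.03 in the knockout against 8.42 and 8.08 in control. Both knockout pools lay above both controls, and the controls were the more widely spread. The means were 8.99 ± 0.06 and 8.25 ± 0.24 (SD, n = 2 each), and the change was 0.74 (SE 0.14, limma adjusted p = 0.240, 95% interval 0.40 to 1.08). Only 84 of the 19421 genes had a higher change. The difference was 0.53 in replicate 1 and 0.96 in replicate 2.

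Hk1 had 8.92 and 9.01 in the knockout and 8.64 and 8.51 in control. These groups did not overlap either, and the change was 0.39 (SE 0.11, limma adjusted p = 0.487). Both hexokinase genes were therefore higher, with the larger change in the photoreceptor form.

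Phosphofructokinase carries out the committed step of glycolysis and is made from 3 genes. Pfkl had 6.51 and 6.66 in the knockout against 6.41 and 6.42 in control, a change of 0.16 (SE 0.10). Pfkm had 6.95 and 6.73 against 6.82 and 6.78, a change of 0.04, and Pfkp had 9.57 and 9.56 against 9.60 and 9.33, a change of 0.10. The liver-type gene Pfkl was the only 1 of the 3 whose pools did not overlap, and the intervals of all 3 include 0.

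The enzymes that set the level of fructose 2,6-bisphosphate, the main activator of phosphofructokinase, behaved differently from each other. Pfkfb2 had 9.21 and 9.38 in the knockout against 10.09 and 10.17 in control. Both knockout pools were lower by a margin several times the distance between pools of a genotype. The means were 9.29 ± 0.11 and 10.13 ± 0.05 (SD, n = 2 each), and the change was −0.84 (SE 0.11, limma adjusted p = 0.0840, 95% interval −1.10 to −0.57). It was −0.88 in replicate 1 and −0.79 in replicate 2, and 24 of all genes had a lower change. Pfkfb3, the inducible isoform, had 6.60 and 6.49 in the knockout against 6.55 and 6.54 in control. Its change was 0.0034 (SE 0.10), with an interval from −0.24 to 0.25.

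The fit under 3 other settings called Pfkfb2. Its adjusted p was 0.0169 when the genes in the dimmer 50% by mean signal were left out, 0.0380 with arrays centred on their medians and 0.00345 with a variance trend in limma. With the trend Hk2 was called as well (adjusted p = 0.0373). Without single arrays the adjusted p of Pfkfb2 lay between 0.270 and 0.540, in fits that leave 1 array in a genotype and assume that it varies like the others.

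Aldolase splits the phosphorylated hexose. Aldoa had 10.40 and 10.22 in the knockout and 10.20 and 10.19 in control, and Aldoc, the brain isoform, had 9.09 and 9.13 against 9.11 and 9.05. Their changes of 0.11 and 0.03 were both about as large as their standard errors or smaller. Of the 9 measured genes of the hexose steps, 8 lay above 0 and 1, Pfkfb2, below.

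**Figure D2:**
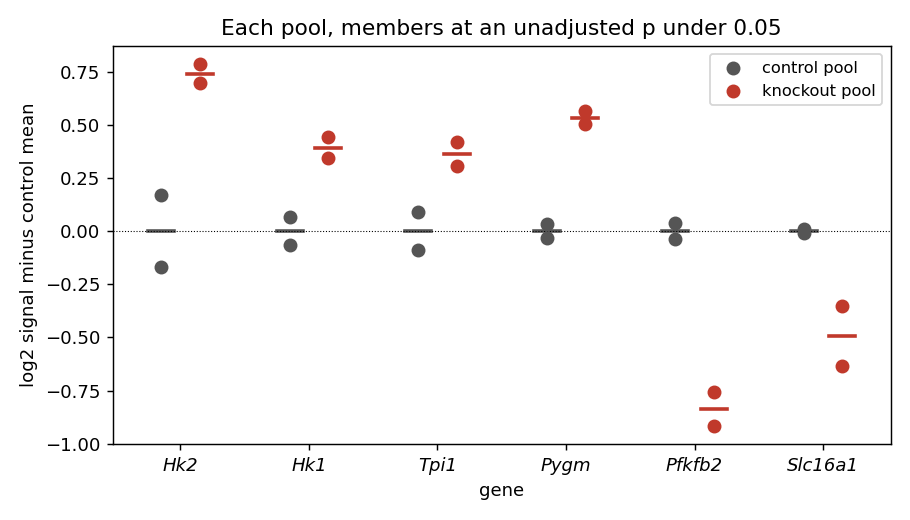
Log2 signal of each pool minus the control mean of the same gene, for the 6 members at an unadjusted p under 0.05. Points are pools and bars group means; both knockout pools of Hk2, Hk1, Tpi1 and Pygm lie above both control pools, and both of Pfkfb2 and Slc16a1 below.

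Among the triose steps, Tpi1 stood out. It encodes the isomerase that interconverts the trioses made by aldolase, and it had 9.82 and 9.71 in the knockout pools against 9.49 and 9.31 in control. The groups did not overlap, and the change was 0.36 (SE 0.11, limma adjusted p = 0.593, 95% interval 0.09 to 0.64). The next enzymes were nearer to 0. Pgk1, which makes the first ATP of glycolysis, had −0.01, Pgam1 0.04 and Eno2, the neuronal enolase, 0.06.

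Pkm encodes the pyruvate kinase of neurons and of photoreceptors as splice forms of a single gene, and its probe set does not report them apart. It had 9.65 and 9.70 in the knockout against 9.81 and 9.78 in control. The knockout pools were the lower, and the change was −0.12 (SE 0.10) with an interval from −0.35 to 0.12. Glycolytic genes such as Pgk1, Pgam1 and Ldha are known to have processed copies in the genome, and hybridisation shared with copies was not tested.

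Of the 7 genes that decide between lactate and mitochondrial oxidation, 0 had an unadjusted p under 0.05 in limma or an adjusted call, against 7.07% of all genes at the unadjusted level. Ldha, the subunit that favours lactate formation, had 9.57 and 9.54 in the knockout and 9.46 and 9.52 in control, a change of 0.06 (SE 0.10). Ldhb, the subunit that favours lactate use, had 8.00 and 7.83 against 8.27 and 8.00, a change of −0.22 (SE 0.13) with overlapping pools. Ldhb was the only member with a second probe set, which had −0.12. The subunits of pyruvate dehydrogenase, Pdha1 and Pdhb, had 0.14 and 0.10.

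Pyruvate dehydrogenase kinases switch that complex off. Pdk1 had 6.30 and 6.03 in the knockout and 6.39 and 6.40 in control, lower in both pools with a change of −0.23 (SE 0.12, limma adjusted p = 0.791). Pdk2 had 5.95 and 5.64 against 5.88 and 6.01, a change of −0.16, and Pdk4 had 4.56 and 4.81 against 4.60 and 4.65, a change of 0.06. The pools of Pdk2 and Pdk4 overlapped. Pdk2 and Pdk4 belong to the 5 members in the dimmer 50% of genes by mean signal, with Rpia, Gpd1 and Gys1, and a low signal cannot be told from background here.

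The pentose phosphate pathway makes NADPH, which photoreceptors need to reduce retinal to retinol and to counter oxidation. All 4 genes measured lay between −0.17 and 0.10. Rpia, ribose 5-phosphate isomerase, had 5.40 and 5.37 in the knockout against 5.53 and 5.58 in control, and Tkt, transketolase, had 6.78 and 6.77 against 6.62 and 6.71. The pools of each of these genes were separated, in opposite directions, and neither passed an unadjusted p of 0.05. Pgd and Taldo1 had −0.06 and −0.04 and their pools overlapped.

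Glycogen phosphorylase releases glucose from glycogen and comes from a brain gene, a muscle gene and a liver gene. The muscle form is also made in glia. Pygm had 6.88 and 6.81 in the knockout against 6.28 and 6.34 in control. The pools of each genotype lay close together, and the groups did not overlap. The change was 0.53 (SE 0.10, limma adjusted p = 0.233, 95% interval 0.29 to 0.77). Pygb, the brain form, had 6.46 and 6.80 against 6.82 and 6.64, a change of −0.11 (SE 0.14) with overlapping pools. The liver gene Pygl, which is not among the members, had 0.18 (SE 0.11, limma adjusted p = 0.82), with both knockout pools higher. Glycogen synthase Gys1 had 0.16, and the enzymes of the glycerol phosphate shuttle, Gpd1 and Gpd2, had 0.04 and −0.03.

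Isoforms of the same step were then compared as the difference between their changes within the arrays. Of 12 pairs chosen, 11 had both genes measured. The largest difference was that of Pfkfb2 and Pfkfb3, at −0.84 (−0.93 in replicate 1 and −0.74 in replicate 2). Pygb and Pygm differed by −0.64 (−0.96 and −0.32). Pfkfb2 held the change of its pair, with Pfkfb3 near 0 (0.05 and −0.05 in the replicates). Pygm was higher in both replicates (0.60 and 0.47), while Pygb differed between them (−0.36 and 0.15).

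The contrast of Hk2 with Hk1 was smaller. Hk2 minus Hk1 was 0.03 and 0.02 in the knockout and −0.22 and −0.43 in control, so that the change of Hk2 exceeded that of Hk1 by 0.35 (0.25 and 0.45 in the replicates). Such a difference shows unequal change of the 2 probe sets, not their relative amounts of RNA. Ldha and Ldhb differed by 0.28 (0.38 and 0.17), and Slc16a1 and Slc16a7 by −0.24 (−0.30 and −0.18). Both depend on single arrays. Ldha minus Ldhb was 0.11 without control replicate 1 and 0.45 without control replicate 2, and Slc16a1 minus Slc16a7 was −0.08 without knockout replicate 1, −0.40 without knockout replicate 2 and −0.14 without control replicate 2.

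For the other pairs the differences were 0.06 for Slc2a1 and Slc2a3, 0.09 for Aldoa and Aldoc, 0.13 for Pfkl and Pfkm, 0.06 for Pfkp and Pfkm, −0.08 for Pdk1 and Pdk2 and 0.22 for Pdk4 and Pdk2. Knockout and control arrays were separated in 5 of the 11 pairs, namely Hk2 and Hk1, Ldha and Ldhb, Slc2a1 and Slc2a3, Pfkfb2 and Pfkfb3, and Pygb and Pygm. In each of these 5 a two-sided exact permutation test gave p = 0.333, the smallest that 2 arrays against 2 allow, and 0.733 after Benjamini-Hochberg adjustment over the 11 pairs. This permutation test cannot pass 0.05 with 2 arrays against 2. Separation alone is common here: of all genes taken singly, 35.4% had separated pools.

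**Figure D3:**
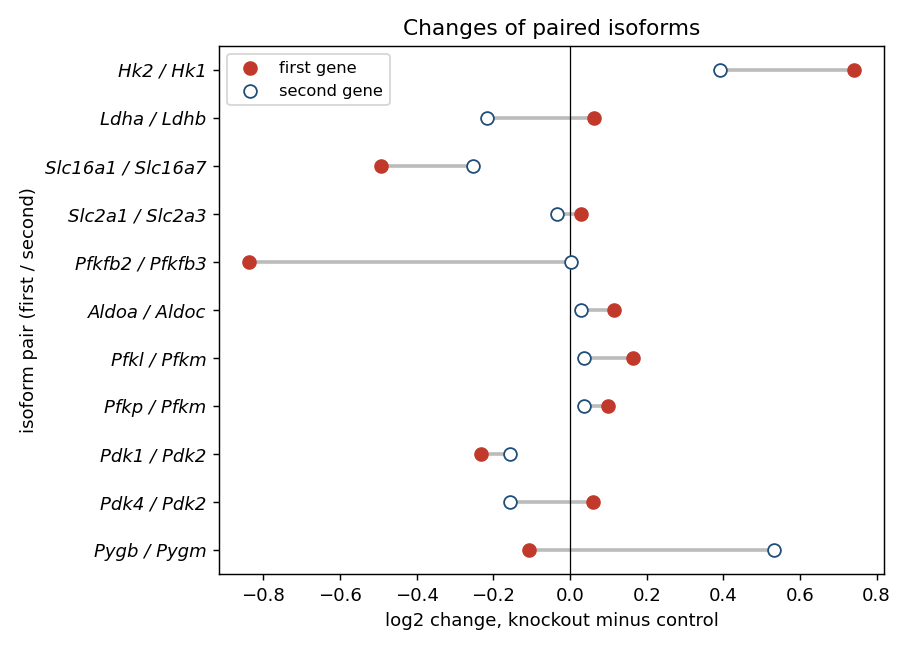
Log2 change (knockout minus control) of both genes of each of the 11 isoform pairs, the first-named gene as a filled point and the second as an open point. The grey line is the difference between them, longest for Pfkfb2 and Pfkfb3 (0.84 on the log2 scale, with Pfkfb2 lower) and for Pygb and Pygm.

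Other isoforms and steps of these pathways were taken from a list of 62 further genes, of which 56 were measured. None was called, and 2 were higher and 2 lower at an unadjusted p under 0.05, which is 7.14% against 7.07% of all genes, with a median of 0.01. Tktl1, a transketolase-like gene, had 5.17 and 5.38 in the knockout against 4.80 and 4.52 in control, a change of 0.62 (SE 0.14, limma adjusted p = 0.330). It lies in the dimmer 50% of genes, where signal cannot be told from background. Pgls, the lactonase of the pentose phosphate pathway, had 0.25 (SE 0.10).

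On the lower side were a transporter of the MCT family and a subunit of the mitochondrial pyruvate carrier. Slc16a6 had 7.67 and 7.62 against 8.07 and 7.97, a change of −0.37 (SE 0.10, limma adjusted p = 0.484). Mpc1, which admits pyruvate to the mitochondria, had 7.55 and 7.51 against 7.92 and 7.77, a change of −0.32 (SE 0.11, limma adjusted p = 0.612). These 4 genes were chosen for their small p, and the pools of all 4 were separated. Of the 56 genes measured, 39.3% had separated pools, against 35.4% of all genes.

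Among regulators of glucose use, 28 of 30 listed genes were measured and none was called, with 2 higher and 3 lower at an unadjusted p under 0.05 (17.9% against 7.07% of all genes) and a median of −0.01. Irs1, the adaptor of the insulin receptor, had 8.01 and 8.20 in the knockout pools against 7.20 and 7.18 in control. It stood at 189% of control, a change of 0.92 (SE 0.11, limma adjusted p = 0.0609), and was the nearest to a call of all the glucose genes examined. Prkaa2, a catalytic subunit of the energy sensor AMPK, had 0.31 (SE 0.10). Ppargc1a, a coactivator of mitochondrial genes, had −0.36 (SE 0.10), and Esrrg, a nuclear receptor it works with, had −0.33 (SE 0.10).

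Nxnl1, whose rod-derived product acts on basigin and Glut1, had 7.38 and 7.85 in the knockout against 7.94 and 8.46 in control. Its pools were separated but widely spread, with a change of −0.59 (SE 0.22, limma adjusted p = 0.659). Of 17 genes known as hypoxia targets outside glycolysis 16 were measured, and 0 had an unadjusted p under 0.05 in limma (against 7.07% of all genes) or an adjusted call. Their median was 0.03 and their range −0.23 to 0.18. The 4 with the smallest p were P4ha2 at −0.18, Vegfa at 0.17, Car9 at 0.16 and Bnip3 at −0.23, the last with overlapping pools. Hif1a, the oxygen-sensing factor, had −0.03, and this gene and Nxnl1 were named after their values were seen.

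**Figure D4:**
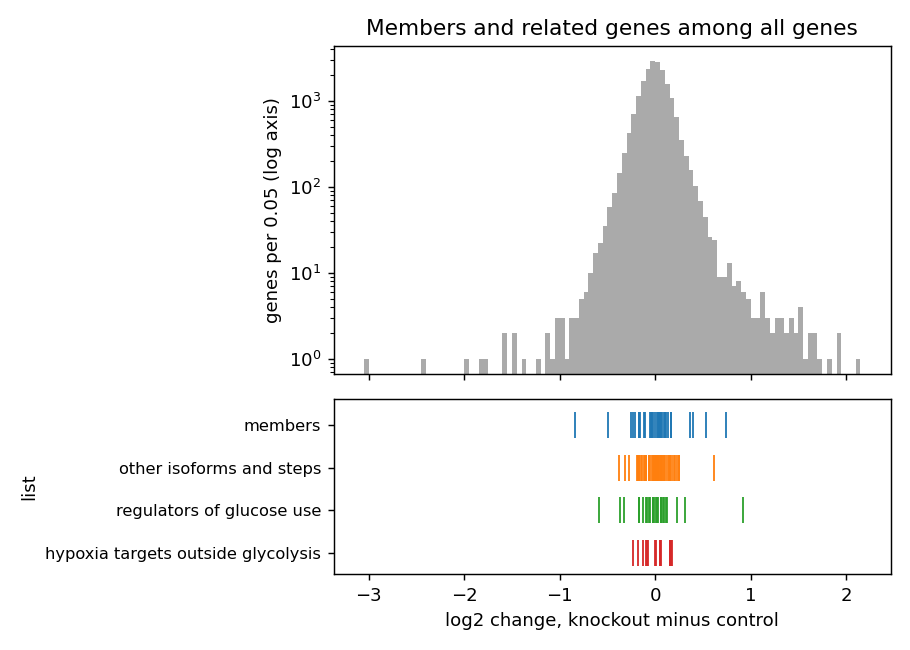
Distribution of the log2 change (knockout minus control) over all 19421 genes, on a log axis of gene counts, above the changes of the 36 members and of the 3 related lists, each gene a tick. Most ticks lie in the body of the distribution; among the members Pfkfb2 (−0.84) and Hk2 (0.74) lie farthest out, and among the regulators Irs1 (0.92).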

How the data were processed

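Each of the 4 arrays has 21897 probe sets, as log2 values that the authors deposited. Affy and limma appear in the submitters' processing notes with no role, and the sources used here give neither background correction nor normalization; the log2 scale was read from the range of 1.34 to 12.75. Values were used as deposited. The platform annotation gave 20877 probe sets 1 symbol, 175 several and 845 none, and the last 2 kinds were left out. The probe set with the highest mean stood for a gene (19421 genes, no filter on signal). The genotypes were compared in R 4.3.3 with limma 3.58.1 (lmFit, eBayes, genotype as the only term, two-sided), with Benjamini-Hochberg adjustment over all genes and calls at an adjusted p under 0.05. The steps were tested on simulated data. The number of arrays limits the precision. The p-values of limma rest on a spread between pools that eBayes draws toward that of all genes.

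The members and lists were chosen with earlier results of these data known. All members are named; those at an unadjusted p under 0.05 and those in isoform pairs are given for each array. Of each related list, called genes or the 4 with the smallest p are named. Hif1a, Nxnl1 and Pygl are named besides, after their values were seen. Alternatives were quantile normalization, median centring, a signal filter, probe set means, a variance trend, a replicate block and leaving out each array.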

Additional observations from a re-analysis of the deposited data

How the results depend on the processing

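The count of 39 called genes became 89 without the dimmer 50% of genes by mean signal (9711 genes tested), 128 with a variance trend and 8 with the replicate number as a block. Without single arrays it ran from 0 (limma without either control replicate, with 1355 and 1328 genes at an unadjusted p under 0.05) to 11, with 7 without knockout replicate 1. Each such fit leaves a lone array in 1 genotype, assumed to vary like the other genotype's arrays. The members called were 1 with arrays centred on their medians, 1 with the signal filter (Pfkfb2 both times) and 2 with the variance trend (Pfkfb2 and Hk2), and 0 under the other settings. The labels give same-numbered pools only a number. Their levels of Xist were alike (4.07 and 4.09 in replicate 1, 10.66 and 10.47 in replicate 2), so that replicate 2 held RNA of females in both genotypes. The deviations of replicate 1 from the group mean correlated at 0.239 between genotypes across genes. With the replicate block Pfkfb2 had an adjusted p of 0.132 and Hk2 of 0.353.

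Under every setting with all 4 arrays, 4 members were higher at an unadjusted limma p under 0.05. Those lower numbered 2, or 3 with the signal filter, which added Slc16a7 (limma unadjusted p = 0.0446). Without knockout replicate 1 the change of Tpi1 was 0.31 and that of Pdk1 −0.37. Pfkfb2, Hk2, Pygm, Slc16a1, Hk1 and Tpi1 kept their direction in all settings tried. The change of Hk2 ran from 0.57 to 0.91 without single arrays, and Hk2 minus Hk1 from 0.24 to 0.45. Pfkfb3 turned from 0.0034 to −0.0019 after quantile normalization and to −0.0099 after centring. Small changes also turned sign without single arrays, within these ranges: Aldoa minus Aldoc −0.023 to 0.19, Pfkm −0.071 to 0.15, Pfkfb3 −0.049 to 0.056, Gpd2 −0.21 to 0.14, Pygb −0.28 to 0.064, Pfkl minus Pfkm −0.057 to 0.31, Pfkp minus Pfkm −0.054 to 0.18, Pdk4 minus Pdk2 −0.064 to 0.50, Pgk1 −0.089 to 0.064, Pdk4 −0.065 to 0.18, Gpd1 −0.13 to 0.22, Pgd −0.18 to 0.069, Pfkp −0.034 to 0.23, Aldoc −0.0027 to 0.059, Pgam1 −0.056 to 0.13.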
